A study of Homo sapiens with 3 samples.

Results

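The miR-15/16 family is a group of microRNAs that share a seed, the short stretch near the 5′ end that pairs with target mRNAs. Its guide arms, and passenger arms cut from the same hairpins, were followed here in the human melanoma line SK-MEL-2. The 10 entries were chosen by name: the 7 guide (5p) arms hsa-miR-15a-5p, hsa-miR-15b-5p, hsa-miR-16-5p, hsa-miR-195-5p, hsa-miR-424-5p, hsa-miR-497-5p and hsa-miR-503-5p, and the 3p arms hsa-miR-15b-3p, hsa-miR-16-1-3p and hsa-miR-16-2-3p. They were 10 of 2588 listed mature miRNAs, and 7 of them reached a mean of 20 counts over the 3 libraries, as did 231 of all listed miRNAs. Cells, grown in serum-containing medium, were untreated (control) or exposed for 3 min or for 5 min to a plasma jet, in which a gas is partly ionised. RNA was taken on Day 2, and small RNA was sequenced from 1 library per group. No spread between cultures can be estimated from these libraries, so no difference below has a test or a p-value. The intervals are exact 95% intervals for counting error, and they take no account of PCR copies or of differences between cultures.

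A microRNA hairpin is cut into a short duplex, from which an Argonaute protein usually keeps the guide strand while the passenger strand is degraded. Guide arms of this family are known to repress cyclin D and BCL2 mRNAs and so to slow cell division and favour cell death. The locus of MIR15A and MIR16-1 is often deleted in chronic lymphocytic leukaemia. The sequence of miR-16-5p is made from both MIR16-1 and MIR16-2, so its reads cannot be assigned to a locus, whereas the 3p arms of these hairpins differ and can be.

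The guide arms are shown first because the family is defined by them. Capitals mark the seed, bases 2 to 8 counted from the 5′ end, and all sequences are RefSeq's on GRCh38.p14, in which all 10 members were found by name.
miR-16-5p: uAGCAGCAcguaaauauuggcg
miR-15a-5p: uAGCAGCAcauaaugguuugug
miR-15b-5p: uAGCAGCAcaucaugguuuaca
miR-195-5p: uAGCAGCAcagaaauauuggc
miR-424-5p: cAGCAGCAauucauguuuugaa
miR-497-5p: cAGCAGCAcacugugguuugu
miR-503-5p: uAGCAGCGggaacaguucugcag
The first 6 share the seed AGCAGCA, and miR-503-5p has AGCAGCG. Beyond the seed the members differ more. Over their common 21 bases, miR-16-5p and miR-195-5p differ by G10A and U11G, with miR-16-5p given first. miR-15a-5p and miR-15b-5p differ by A12C, G20A, U21C and G22A. How reads that match several miRNAs were counted is not given in the sources used here, so the separate values of such close pairs are uncertain.

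The 3p arms are shown because they tell the loci apart and because several had lower values after plasma.
miR-16-1-3p: cCAGUAUUaacugugcugcuga
miR-16-2-3p: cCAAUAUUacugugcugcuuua
miR-195-3p: cCAAUAUUggcugugcugcucc
miR-15b-3p: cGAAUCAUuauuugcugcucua
miR-503-3p: gGGGUAUUguuuccgcugccagg
None of them has the family seed. miR-16-2-3p and miR-195-3p share CAAUAUU, while miR-16-1-3p has CAGUAUU.

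The hairpins of the 3 listed passenger arms show where each arm lies, with both mature arms in capitals. MIR16-1 (chr13:50048973-50049061, minus strand) lies in an intron of the non-coding RNA gene DLEU2. MIR16-2 (chr3:160404745-160404825, plus strand) and MIR15B (chr3:160404588-160404685, plus strand) lie in introns of SMC4, a condensin subunit gene. Host genes are from GENCODE release 29.
MIR16-1: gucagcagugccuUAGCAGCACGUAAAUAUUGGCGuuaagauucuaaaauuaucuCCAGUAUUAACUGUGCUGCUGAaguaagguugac
MIR16-2: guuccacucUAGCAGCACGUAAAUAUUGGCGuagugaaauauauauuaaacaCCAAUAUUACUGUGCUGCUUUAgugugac
MIR15B: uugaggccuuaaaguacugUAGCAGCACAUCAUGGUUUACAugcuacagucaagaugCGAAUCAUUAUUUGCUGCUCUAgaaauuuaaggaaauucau
The other family hairpins are MIR15A (chr13:50049119-50049201, over an exon of a DLEU2 transcript), MIR195 (chr17:7017615-7017701) and MIR497 (chr17:7017911-7018022), both over exons of MIR497HG, MIR424 (chrX:134546614-134546711, over an exon of MIR503HG) and MIR503 (chrX:134546328-134546398, in an intron of MIR503HG).

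The control library held 1045482 counts, the 3 min library 966943 and the 5 min library 615645, and values below are listed in that order. A count of 0 allows up to 3 counts as a 1-sided 95% limit, or 2.87, 3.10 and 4.87 CPM (counts-per-million of the library total), whereas the intervals of other counts are 2-sided. A list of 7 miRNAs taken as melanocyte-lineage markers summed to 4055, 4074 and 2461 counts. Most of these were miR-204-5p (2608, 2535 and 1257) and miR-146a-5p (1319, 1442 and 1139). Only 128, 97 and 65 were miR-211-5p, and 4 of the miR-506 to miR-514 cluster were at 0 in every library. The sum thus says little about miR-211-5p or the cluster. The 7 blood-cell markers, of interest because blood cells are rich in this family, summed to 17, 21 and 14 counts with miR-223-3p at 0 throughout. The 5 epithelial markers summed to 15, 24 and 40 counts and the 4 muscle markers to 1, 3 and 15. Both of these sums were higher in the plasma libraries. There miR-1-3p made up all muscle counts, and miR-200b-3p and miR-200c-3p made up most epithelial counts.

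The family made up a small part of the counts: in the control, 0.064% for the 7 guide arms and 0.087% for the 3 passenger arms. Its most abundant entry was a 3p arm, listed as a passenger. Guide and passenger are used here as names for the 5p and 3p arms, whichever arm had more counts. In the control, miR-15b-3p had 770 counts (counting interval 717 to 826), or 737 CPM, and stood at rank 70 of all listed miRNAs. The most abundant guide, miR-16-5p, had 418 counts (379 to 460), or 399.8 CPM, at rank 91. miR-15b-5p followed with 150 counts (127 to 176) and miR-16-1-3p with 108 (88.6 to 130), whose intervals overlap. Below them were miR-424-5p with 51 (38.0 to 67.1), miR-503-5p with 33 (22.7 to 46.3) and miR-16-2-3p with 29 (19.4 to 41.6), and neighbours in this order overlap too. miR-15a-5p had 7 counts (2.81 to 14.4), miR-195-5p had 5 (1.62 to 11.7) and miR-497-5p had none. The mature RNAs are of similar length, 21 to 23 bases, and counts were not divided by length. Whether a read that matches several miRNAs was counted once is not given in the sources used here. Adapter ligation also favours some RNA ends, so the counts are not molar amounts.

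**Figure D1:**
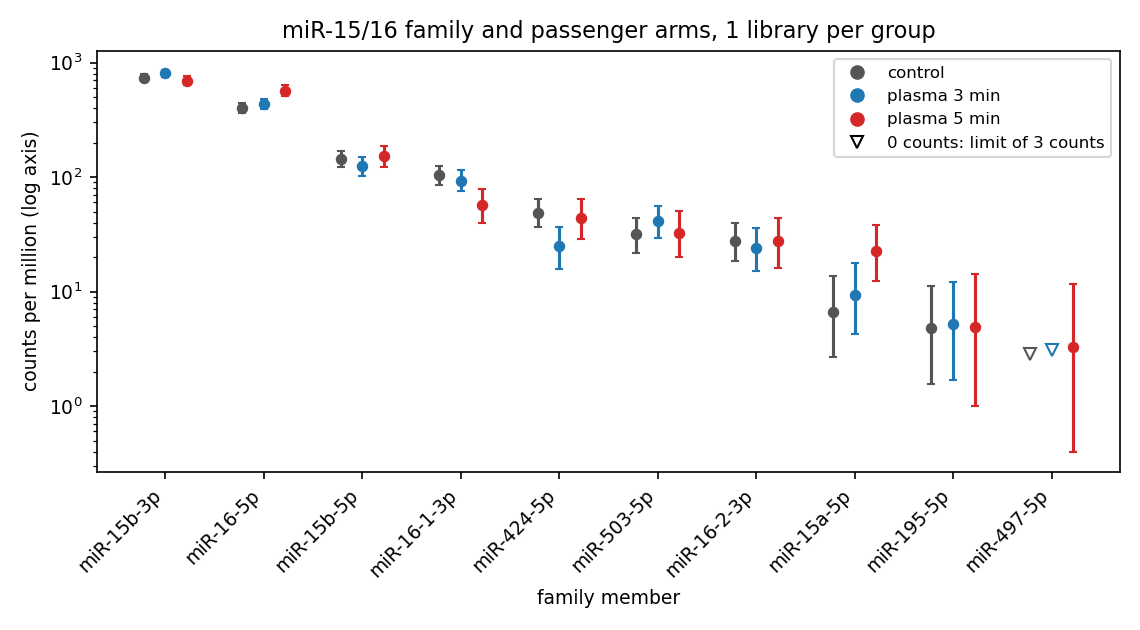
CPM (log axis) for the 10 members in the 3 libraries, with exact 95% Poisson intervals as bars and open triangles at the 3-count limit where the count was 0. miR-15b-3p leads in every library, miR-16-5p is highest after 5 min, and miR-16-1-3p is lowest after 5 min.

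Among the guides, miR-16-5p alone stood clear of counting error between the control and the 5 min library within the measured set. It also had the most counts of the guides, and so the narrowest interval of its ratio. Its counts of 418, 419 and 351 were 399.8, 433 and 570.1 CPM, since the last library is the shallowest. The 5 min interval, 512 to 633 CPM, lies above those of the control (362 to 440) and of 3 min (393 to 477). Ratios between libraries were taken after TMM (trimmed mean of M-values) scaling, which corrects for differences in composition. On that scale miR-16-5p was 1.41-fold the control after 5 min (1.22 to 1.63), short of the 1.5-fold size rule used here. At 3 min the ratio was 1.09 (0.953 to 1.26). The 5 min library was 1.29-fold the 3 min library (1.12 to 1.49). These ratios were not extreme: of the 231 measured miRNAs, 79.7% had a lower 5 min ratio to control than miR-16-5p. For 5 min against 3 min, 81.0% were lower. The epithelial marker sum was likewise higher after 5 min, at 4.49-fold the control (2.43 to 8.76). Between these libraries miR-200c-3p went from 6 to 17 counts, and miR-200b-3p went from 6 to 20. The remaining epithelial markers had the same few counts in both: 2 for miR-200a-3p, 1 for miR-141-3p and 0 for miR-429. Whether other cells contribute to the miR-16-5p value was not tested. In RNA from whole cultures, fewer cells of a kind and less of an RNA per cell cannot be told apart.

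miR-15b-5p, which differs from miR-15a-5p at 4 bases and comes from the SMC4 intron, stayed within counting error of the control. Its counts were 150, 120 and 94, or 143, 124 and 153 CPM, with overlapping intervals in all 3 libraries. The 3 min ratio to control was 0.873 (0.681 to 1.12), and the 5 min ratio was 1.06 (0.807 to 1.38). The sign of the latter changed with the scaling, from -0.09 to 0.09 on the log2 scale.

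miR-424-5p, a hypoxia-responsive member of the X-linked cluster, had its lowest level in the 3 min library. Its counts were 51, 24 and 27, or 48.8, 24.8 and 43.9 CPM, and the intervals of the control (36.3 to 64.1 CPM) and 3 min (15.9 to 36.9) overlap narrowly. After 3 min it was 1.95-fold lower than control (1.18 to 3.31), and after 5 min 1.12-fold lower with an interval that included 1 (0.690 to 1.86). The 5 min library was 1.74-fold the 3 min library (0.965 to 3.14). The 5 min value was not as low, but that last interval includes 1, so the exposures were within counting error of each other. Each of these values rests on few counts.

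Its neighbour miR-503-5p, the member with the divergent seed, had 33, 40 and 20 counts, or 31.6, 41.4 and 32.5 CPM. The intervals of the 3 libraries overlap. Its 3 min ratio to control was 1.32 (0.813 to 2.16), and its 5 min ratio was 1.02 (0.555 to 1.83), the latter ranging from -0.14 to 0.04 on the log2 scale over the scalings.

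Of the guides under the count minimum, miR-15a-5p had 7, 9 and 14 counts, or 6.70, 9.31 and 22.7 CPM. It was 3.37-fold the control after 5 min (1.27 to 9.87), and at 3 min the ratio was 1.40 (0.465 to 4.43). The 5 min value is the largest ratio to control of any member with counts in both libraries, and it has the fewest counts behind it of those whose interval leaves out 1. miR-195-5p had 5, 5 and 3 counts, with a 5 min ratio of 1.01 (0.157 to 5.20), and miR-497-5p had 0, 0 and 2, for which no fold is given.

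Of the 3 passenger arms among the members, miR-16-1-3p alone was past 1.5-fold from control. This arm, made only from the DLEU2 locus, had 108, 90 and 35 counts, or 103, 93.1 and 56.9 CPM. The 5 min interval (39.6 to 79.1 CPM) lies below that of the control (84.7 to 125) and overlaps that of 3 min narrowly (74.8 to 114). It was 1.83-fold lower than control after 5 min (1.24 to 2.76) and 1.67-fold lower than in the 3 min library (1.12 to 2.54). The 3 min library was 1.10-fold below control (0.824 to 1.47). At the other locus, miR-16-2-3p had 29, 23 and 17 counts, or 27.7, 23.8 and 27.6 CPM, all within counting error. Its ratio to control was 0.865 at 3 min (0.478 to 1.55), and at 5 min it was 0.988 (0.509 to 1.86).

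miR-15b-3p, the most abundant entry, had 770, 778 and 428 counts, or 737, 805 and 695 CPM. Neither exposure took it beyond counting error of the control, with a ratio of 1.10 (0.997 to 1.22) for the 3 min library and 0.937 (0.830 to 1.06) for the 5 min library. Between the exposures it was 1.18-fold lower after 5 min (1.04 to 1.33).

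In each comparison at most 1 of the 7 measured members in either direction was past 1.5-fold; miR-15a-5p, under the count minimum, is not among them. After 3 min, 0 of the 7 measured members were higher and 1 was lower (miR-424-5p), where 6.93% of the 231 measured miRNAs were higher and 5.19% lower. After 5 min, 0 were higher and 1 was lower (miR-16-1-3p), against a background of 17.3% higher and 11.7% lower. With 5 min set against 3 min, 1 was higher (miR-424-5p) and 1 lower (miR-16-1-3p), against 13.0% and 8.66%. None of the 7 measured members reached 2-fold in these comparisons, where 3.03%, 13.0% and 7.36% of measured miRNAs did after 3 min, after 5 min and between the exposures. The comparisons share libraries in pairs, so these counts are not separate pieces of evidence. miR-424-5p after 3 min and miR-16-1-3p after 5 min were past 1.5-fold in each of the 5 scalings tried. Under TMM over all listed miRNAs the background itself turned: 27 miRNAs were higher and 40 lower after 5 min, against 40 and 27, and between the exposures 23 were higher and 31 lower, against 30 and 20. That scaling moved the median log2 ratio of all measured miRNAs after 5 min from 0.05 to -0.12.

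The medians of members and of all measured miRNAs lay close to 0. The 7 measured members had a median log2 ratio to control of -0.14 after 3 min and -0.02 after 5 min, beside 0.05 and 0.05 for all 231. Individual members ranged from -0.96 to 0.40 after 3 min and from -0.87 to 0.50 after 5 min. Split by arm after 5 min, the 4 measured guides had a median of 0.05 and the 3 passengers -0.09.

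**Figure D2:**
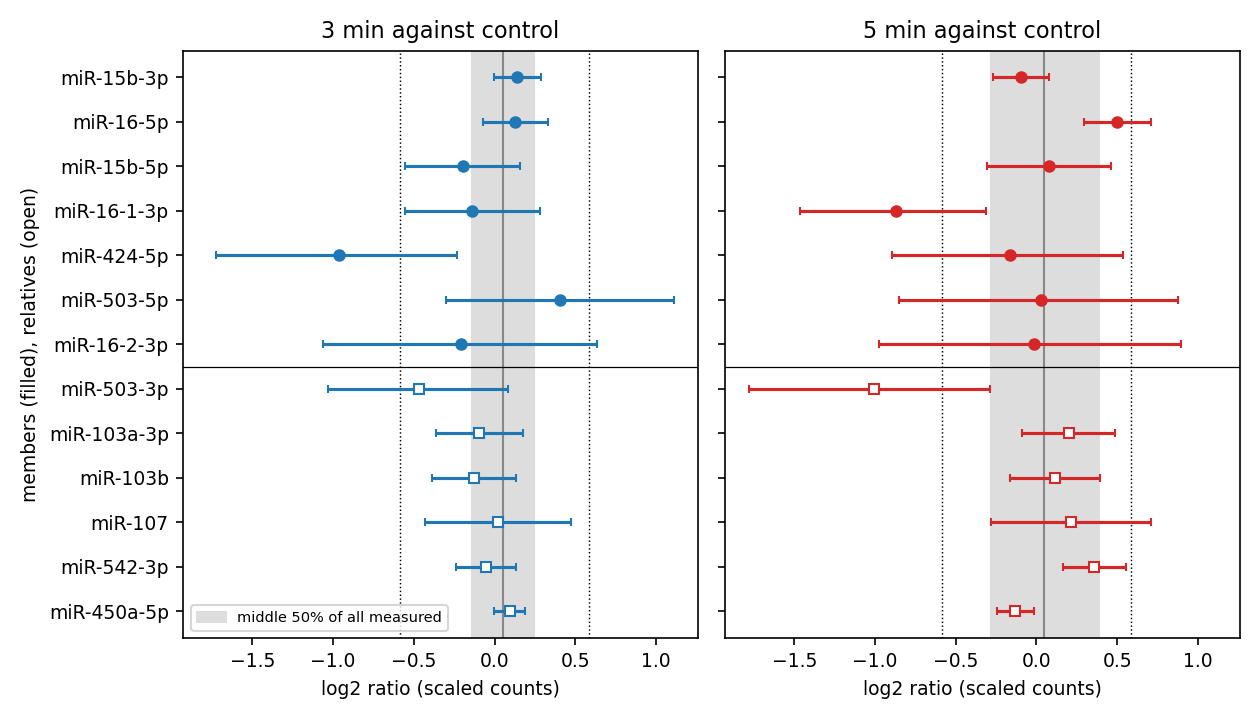
Log2 ratio of scaled counts to control (x axis) for the 7 measured members (filled) and the measured relatives (open), after 3 min (left) and 5 min (right), with exact 95% counting intervals; the grey band holds the middle 50% of all 231 measured miRNAs and dotted lines mark 1.5-fold. miR-424-5p lies past the line after 3 min, and miR-16-1-3p and miR-503-3p after 5 min.

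**Figure D3:**
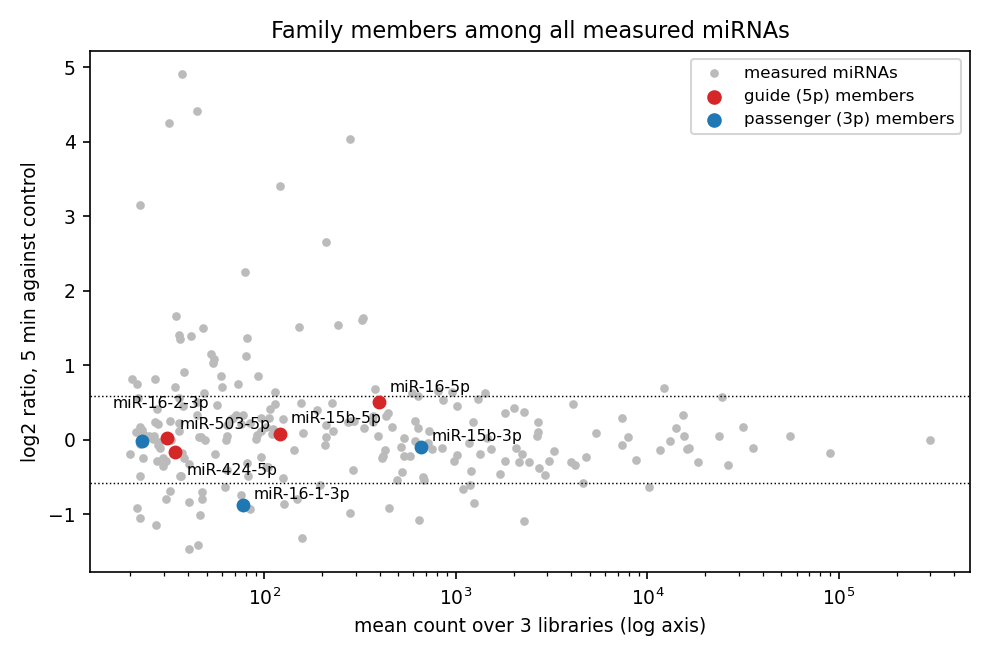
Log2 ratio of the 5 min library to control against mean count over the 3 libraries (log axis) for the 231 measured miRNAs in grey, with guide members in red and passenger members in blue; dotted lines mark 1.5-fold. miR-16-1-3p lies at -0.87, past the lower line. All other measured members, miR-16-5p at 0.50 among them, lie between the lines.

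Summed over the 7 guide arms, the family had 664, 617 and 511 counts, or 635, 638 and 830.0 CPM. That made the sum 1.30-fold the control after 5 min (1.15 to 1.46), while at 3 min the ratio was 1.01 (0.907 to 1.13). miR-16-5p supplied 63.0%, 67.9% and 68.7% of the sum, and without it the 5 min ratio was 1.10 (0.892 to 1.34). The 3 passenger arms together had 907, 891 and 480 counts, with a 3 min ratio of 1.07 (0.976 to 1.18) and a 5 min ratio of 0.892 (0.797 to 0.997). In the control and 3 min libraries the 3 passengers outnumbered the 7 guides, while after 5 min the sums, 511 and 480, had overlapping intervals (468 to 557 and 438 to 525). This order rests on miR-15b-3p, which supplied 84.9%, 87.3% and 89.2% of the passenger sum. Both miR-16 3p arms together had 137, 113 and 52 counts, fewer than the guides in every library.

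The balance of the arms can be read within each library, where the scaling cancels. For miR-16, the count of the 5p arm over that of miR-16-1-3p was 3.87, 4.66 and 10.0 in the control, 3 min and 5 min libraries. The 5 min value was 2.59-fold that of the control (exact conditional interval 1.70 to 4.01) and 2.15-fold that of 3 min (1.40 to 3.36), whereas 3 min differed from control by 1.20-fold (0.871 to 1.66). Because miR-16-5p comes from both loci, part of this ratio's numerator is not from MIR16-1. Against miR-16-2-3p, the same 5p counts gave 14.4, 18.2 and 20.6, a 5 min change of 1.43-fold (0.747 to 2.83). Both miR-16 3p arms together made up 24.7% of all miR-16 reads in the control (interval 21.2 to 28.5). The share was 21.2% at 3 min (17.8 to 25.0), and at 5 min it was 12.9% (9.79 to 16.6). The interval for 5 min does not overlap those of the other libraries.

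The split between the loci was less certain. miR-16-2-3p was 21.2% of the miR-16 3p reads in the control (14.7 to 29.0) and 20.4% at 3 min (13.4 to 29.0). At 5 min it was 32.7% (20.3 to 47.1), on 17 of 52 reads. These intervals overlap, but overlap of separate intervals does not decide whether the shares differ. No interval was computed for the difference between libraries, so none is claimed. The shares are of 3p reads, and use of the loci was not measured.

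MIR15B gave the reverse arm order, with the 3p arm ahead in every library. miR-15b-3p was 83.7% of the reads of the hairpin in the control (81.1 to 86.0), and the shares were 86.6% (84.2 to 88.8) and 82.0% (78.4 to 85.2) in the 3 min and 5 min libraries. Its ratio of 5p to 3p changed 0.792-fold with 3 min of plasma (0.605 to 1.04) and 1.13-fold with 5 min (0.839 to 1.51), both within counting error. Between the exposures the change was 1.42-fold (1.05 to 1.93).

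As a background, 49 hairpins had both arms measured under a single name stem, miR-15b and miR-503 among them and miR-16 not. Of these, 8.16% changed their arm ratio by at least 1.5-fold after 3 min, 32.7% after 5 min and 18.4% between the exposures. The 5 min change of miR-16-5p over miR-16-1-3p was exceeded in size by 2 of the 49. Changes past 1.5-fold were thus common after 5 min, with 16 of 49 hairpins. Over the 49, the 5 min changes had a median of 0.05 on the log2 scale, with 9 hairpins at least 1.5-fold toward the 5p arm and 7 toward the 3p arm.

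**Figure D4:**
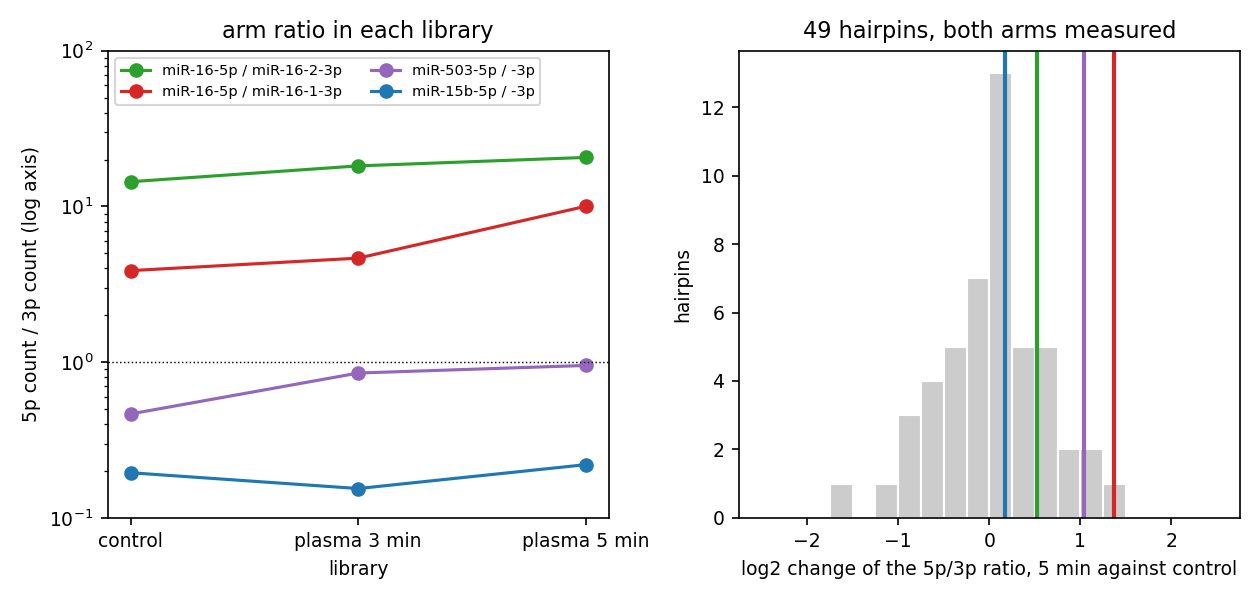
Left, the count of the 5p arm over the 3p arm in each library (log axis) for 4 arm pairs of the family; right, a histogram of the log2 change of that ratio from control to 5 min over 49 hairpins, with the 4 pairs as vertical lines in the same colours. The ratio of miR-16-5p to miR-16-1-3p goes from 3.87 to 10.0, and its line lies at the upper edge of the histogram.

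The other 3p arms of family hairpins, given as 5 relatives, included 2 that were lower after 5 min and 3 that were almost absent. miR-503-3p had 71, 47 and 21 counts and was 2.01-fold lower than control after 5 min (1.22 to 3.44), and at 3 min it was 1.38-fold lower (0.944 to 2.05). Its share of the MIR503 reads was 68.3% in the control (58.4 to 77.1). The shares at 3 min and 5 min were 54.0% (43.0 to 64.8) and 51.2% (35.1 to 67.1), and the change of the arm ratio after 5 min, 2.05-fold toward the 5p arm, had an interval that included 1 (0.913 to 4.57). miR-195-3p, just under the count minimum, had 36, 14 and 3 counts, which put it 2.36-fold below control at 3 min (1.24 to 4.73) and, with 5 min of plasma, 7.12-fold below (2.25 to 36.1). Its own 5p arm had 5, 5 and 3 counts, so the 3p arm was the larger in the control and equal after 5 min. miR-15a-3p and miR-424-3p had 2 counts each, both in the 3 min library, and miR-497-3p had none.

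Grouped by locus, products found only at DLEU2 on chromosome 13 (miR-15a-5p, miR-15a-3p and miR-16-1-3p) summed to 115, 101 and 49 counts, 1.39-fold lower after 5 min with 1 in the interval (0.989 to 1.99). Within that sum miR-15a-5p and miR-16-1-3p stood on opposite sides of the control. The SMC4 products on chromosome 3 (miR-15b-5p, miR-15b-3p and miR-16-2-3p) summed to 949, 921 and 539, 1.04-fold lower after 5 min (0.939 to 1.16). Both arms of MIR195 and MIR497 on chromosome 17 summed to 41, 19 and 8, 3.04-fold lower after 5 min (1.41 to 7.51), and miR-195-3p made up 36, 14 and 3 of these counts. Those of MIR424 and MIR503 on the X chromosome summed to 155, 113 and 68, 1.35-fold lower after 5 min (1.01 to 1.83). Of that sum, miR-503-3p made up 71, 47 and 21 counts, while miR-424-5p and miR-503-5p were within counting error of the control after 5 min.

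The X-linked neighbours of MIR424 and MIR503, 7 listed arms of miR-542 and miR-450, summed to 2334, 2240 and 1382 counts, at 0.998-fold the control after 5 min (0.933 to 1.07). Of these, miR-450a-5p (1816, 1775 and 985 counts) was 1.09-fold lower after 5 min (1.01 to 1.18) and miR-542-3p (502, 444 and 382) was 1.28-fold the control (1.12 to 1.47). Neither was past 1.5-fold, and the remaining 5 arms were under the count minimum.

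The only other listed miRNA with the seed of miR-16-5p in the RefSeq table was miR-6838-5p, at 0 in all 3 libraries. The offset relatives miR-103a-3p and miR-107 carry the same bases shifted by 1 position. miR-103a-3p had 248, 213 and 169 counts and miR-107 had 87, 81 and 60, with 5 min ratios of 1.15 (0.939 to 1.40) and 1.16 (0.822 to 1.63). miR-103b, the exact reverse complement of miR-103a-3p, had 275, 231 and 177 counts, close to those of miR-103a-3p in each library; whether strand was used in counting is not given in the sources used here.

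The miRNAs whose pair of log2 ratios to control lay nearest to that of miR-15b-5p, among 109 others with a mean of at least 200 counts, were miR-532-5p (670, 539 and 404 counts, distance 0.06), miR-103b (distance 0.08) and miR-9-5p (16885, 14199 and 11140 counts, distance 0.10). For miR-16-5p, among 108 others, they were miR-30a-5p (2473, 2437 and 1906 counts, distance 0.13), miR-374b-5p (1045, 1137 and 850, distance 0.13) and miR-146a-5p (1319, 1442 and 1139, distance 0.13). Each distance rests on 3 libraries and shares the control between both ratios.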

How the data were processed

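Each file deposited by the authors lists unnormalized read counts for mature miRNAs, from Trizol RNA and a NEBNext small-RNA kit, per the labels' protocols. The submitters' processing notes name Bowtie2, bedtools and edgeR. The sources used here give no version, build, annotation, trimming or strand setting. Library totals were 615645 to 1045482 counts, so 1 count was worth 0.956 to 1.62 CPM.

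A mean of 20 counts or more was required (231 miRNAs), and TMM factors (1.000, 0.991 and 1.008) came from edgeR 4.0.16 in R 4.3.3. Ratios have exact Clopper-Pearson intervals from the split of counts between 2 libraries, sums have exact Poisson intervals, and arm ratios exact conditional intervals (scipy 1.17.1). The ratio and arm intervals were checked on simulated Poisson counts with known library totals. That check left out the TMM step, PCR copies and differences between cultures. With 1 library per group there is no test. Differences of at least 1.5-fold were counted.

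The text names all 10 members, relatives (other family 3p arms, seed mates, offset relatives, X-linked neighbours) with a mean of at least 20 counts, and the 3 nearest miRNAs to miR-15b-5p and miR-16-5p. Scarcer relatives, miR-195-3p among them, are named after their values were seen. The members and lists were chosen with earlier results of these data known. Alternatives were library totals, DESeq2 1.42.0 size factors, TMM over all listed miRNAs, totals without the 10 most abundant miRNAs, minimum means of 10 and 50 counts, no filter with 0.5 added, and the guide sum without miR-16-5p.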

Additional observations from a re-analysis of the deposited data

How the results depend on the processing

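Across the alternatives, 72 recomputed counts, medians, sums and arm ratios stayed within the counting interval or within 1.5 times the count, and 21 did not. Each family median was judged by the counting interval of its middle member. After 5 min this was miR-16-2-3p, with log2 limits of -0.97 and 0.89, so a median could hardly leave it. Arm ratios with 0.5 added could hardly leave their intervals either. For these the tally says little about stability. No value past 1.5-fold changed sign. Of single miRNAs, 155 values stayed and 1 moved, that of miR-450a-5p after 5 min, from -0.13 to -0.30 with TMM over all listed miRNAs. The summed guide arms after 5 min had a log2 ratio of 0.37, which became 0.21 with TMM over all listed miRNAs and 0.13 without miR-16-5p. After 3 min that sum was 0.02, and it was -0.19 without miR-16-5p, -0.01 with DESeq2 size factors and -0.04 with TMM over all listed miRNAs, so its sign rests on that member and on the scaling.

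Counts of miRNAs past 1.5-fold differed with the filter, which also changes how many miRNAs enter. With a mean of at least 10 counts (289 miRNAs), 30 were higher and 23 lower after 3 min, 65 were higher after 5 min, and 56 were higher and 31 lower between the exposures. With at least 50 counts (164 miRNAs) they were 7 and 4, 25 and 16, and 18 and 6. With no filter and 0.5 added (965 miRNAs), which changes the filter, the counts and the TMM factors together, they were 242 and 218, 340 and 255, and 327 and 242. The median of all miRNAs after 5 min then went from 0.05 to 0.42. That of the members went from -0.02 over 7 to -0.27 over 10, with 2 members past 1.5-fold higher and 1 lower. The members added there are those under the count minimum. At the main scaling, miR-15a-5p and miR-195-5p had 5 min log2 ratios of 1.75 and 0.02, both above the members' median of -0.02. For miR-497-5p no ratio could be taken. Which of the joint changes moved the median was not tested. TMM over all listed miRNAs gave 31 lower between the exposures; the cause was not tested. At a mean of at least 10 counts, miR-15a-5p entered and 1 member was past 1.5-fold higher after 5 min and 2 between the exposures. At 50, miR-424-5p dropped out and 0 members were past 1.5-fold after 3 min and 0 were higher between the exposures. No paired analysis was possible because each group had 1 library.

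Depth limits the scarce members: miR-15a-5p, miR-195-5p and miR-497-5p had 14 counts or fewer in each library.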
